A study of Mus musculus with 16 samples.

Results

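S100 genes encode small calcium-binding proteins, and 9 of them, S100a1, S100a4, S100a6, S100a8, S100a9, S100a11, S100a13, S100a16 and S100b, were described here across quadriceps muscle of wild type mice and of mice that lack Mtm1. They were taken by symbol from a table of 41388 genes, and each of the 9 symbols matched 1 row. Mtm1 is the X-linked gene of a phosphoinositide phosphatase whose loss causes myotubular myopathy, a congenital muscle disease. RNA sequencing libraries of whole quadriceps from 16 C57BL/6 mice aged 36 days fell into 4 groups of 4, namely WT, WT + TAM, Mtm1 KO (labelled mtm1 -/-) and Mtm1 KO + TAM. Mice of the TAM groups ate chow with tamoxifen at 40 mg/kg from day 21, and the labels name no treatment for the other groups. Each library came from 1 mouse, the study describes the mice as littermates without saying which shared a litter, the knockout deletes an exon of Mtm1, and the tissue holds muscle fibers together with connective, vascular, nerve, fat and blood cells. In such bulk samples, fewer cells of a type and less RNA per cell cannot be told apart.

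S100 proteins form dimers, and each subunit carries a pair of EF hands, helix-loop-helix units of which the second binds calcium tightly. Binding opens a surface that docks onto partner proteins, so that most S100 proteins act as calcium sensors inside cells. A few are also released and bind receptors such as RAGE and TLR4. In muscle, S100a1 is known as the isoform of the muscle fiber, where it binds the calcium release channel and the calcium pump of the sarcoplasmic reticulum. S100a4, S100a6 and S100a11 are common in fibroblasts and other motile cells, S100a8 and S100a9 form calprotectin in neutrophils and monocytes, and S100b is known from glia and Schwann cells.

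The coding sequence of the second calcium loop is shown for 8 of the 9 genes, because this loop is the feature that they share. Each loop has 12 codons, and the capitals mark codons 1, 3, 5 and 12, which encode residues that hold the calcium ion. The sequences are read 5′ to 3′ from the GENCODE vM21 transcripts.
S100a1: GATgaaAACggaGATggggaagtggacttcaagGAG
S100a4: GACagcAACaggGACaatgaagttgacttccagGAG
S100a6: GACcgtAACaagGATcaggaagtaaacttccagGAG
S100a8: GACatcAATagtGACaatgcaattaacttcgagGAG
S100a9: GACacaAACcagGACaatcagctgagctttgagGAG
S100a11: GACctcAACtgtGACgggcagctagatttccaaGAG
S100a13: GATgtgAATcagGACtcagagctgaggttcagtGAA
S100a16: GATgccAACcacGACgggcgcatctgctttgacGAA

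As a whole, loop included, the proteins differ widely. Aligned over their whole translated coding sequences, S100a1 and S100b were the closest pair of the 9, with 58.7% of the aligned residues identical, and S100a9 and S100a16 the most distant, with 22.5%. S100a4 and S100a6 shared 50.6%, whereas the calprotectin partners S100a8 and S100a9 shared 32.6%.

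In the GRCm38 annotation, 7 of the 9 genes lie within 184688 bases of chromosome 3, from S100a1 at chr3:90511034-90514392 on the minus strand to S100a9 at chr3:90692632-90695721, also on the minus strand. Between them, all on the plus strand, are S100a13 at chr3:90514435-90524581, S100a16 at chr3:90537254-90543151, S100a4 at chr3:90603771-90606045, S100a6 at chr3:90612882-90624181 and S100a8 at chr3:90668978-90670035. S100a11 is farther along the same chromosome at chr3:93520488-93526287, and S100b is on another one, at chr10:76253853-76261159. S100a1 and S100a13 point away from each other, with 42 bases between their annotated starts at chr3:90514393-90514434. This stretch is shown on the strand of S100a13, because both genes begin at its ends and their levels are compared later; none of the 5 motifs searched lies in it.
S100a1 to S100a13 gap: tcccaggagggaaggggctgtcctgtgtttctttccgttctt

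For S100a4, the gene with the largest fold of those that passed the test, the 250 bases before the RefSeq start (GRCm38.p6, chr3:90603520-90603769, plus strand) are shown with motif letters in capitals.
S100a4 upstream: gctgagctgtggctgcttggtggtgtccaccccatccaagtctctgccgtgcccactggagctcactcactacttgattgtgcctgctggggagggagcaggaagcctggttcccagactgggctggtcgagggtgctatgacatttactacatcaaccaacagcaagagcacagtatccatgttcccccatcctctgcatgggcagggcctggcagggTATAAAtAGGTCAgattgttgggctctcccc
The first capitals are TATAAA, beginning 31 bases before the start, and the second are AGGTCA, a motif bound by nuclear receptors such as the estrogen receptor, beginning 24 bases before it. Among 32851 windows of this length in the RefSeq table, 12.4% held TATAAA and 14% held AGGTCA on either strand. The other motifs searched were TGANTCA of AP-1, found in 6.75% of the windows, the E-box CAGCTG, found in 13%, and the GC box GGGCGG, found in 32.7%. In the windows of S100a1, S100a6, S100a13 and S100b none of the 5 occurred, and that of S100a11 held 2 AP-1, 3 GC box and 1 AGGTCA matches. The window of S100a8 held 1 TATAAA and 2 E-box matches, and that of S100a9 held 1 GC box match. Of the 2 windows of S100a16, 1 held 1 AGGTCA match and the other held 1 match each for AP-1, E-box and GC box. Such a match is a description of letters and was not tied to any value measured here.

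The libraries held between 25116179 and 29847222 counts in genes. Mtm1 checked the labels: it had between 282 and 459 counts in 7 of the 8 libraries labelled WT or WT + TAM and between 53 and 97 in the 8 libraries of the knockout groups. The library labelled WT replicate 1 had 74, a raw count inside the knockout range, although its regenerating fiber markers, at 89.2 CPM (counts scaled to a fixed library depth), were at the wild type level. As scaled CPM its Mtm1 was 3.81, above the 1.76 to 3.08 of the knockout libraries and below the 12.1 to 18.5 of the other wild type libraries. Over the tested libraries Mtm1 fell by 2.56 on the log2 scale in Mtm1 KO and by 2.51 in Mtm1 KO + TAM. The study left that library and Mtm1 KO replicate 12 out of its own expression analysis without a reason in the sources used here. The tests below therefore used the same 14 libraries, 3 of WT, 4 of WT + TAM, 3 of Mtm1 KO and 4 of Mtm1 KO + TAM, and results with the remaining libraries are given beside them. Levels are CPM scaled by the trimmed mean of M values (TMM) when libraries are compared, and the deposited RPKM, read counts scaled to gene length and depth, when genes are compared. A gene passed the test when its p from edgeR's quasi-likelihood test, after Benjamini-Hochberg adjustment over all genes tested, was at or below 0.01.

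Per length, S100a1 had the highest level of the 9 genes in WT muscle. On the RPKM scale, it was at 89.2 to 127 in the 3 WT libraries and made up 30.8% to 35.5% of the summed level of the 9 genes. S100a6 followed with 69.9 to 80.1 and S100a11 with 55.7 to 83.8, ranges that overlapped each other. S100a16, S100a13 and S100a4 lay between 13.3 and 33.1, S100b between 1.54 and 3.77, and S100a8 and S100a9 below 1. The plot of the summed level shows that the shares differed in the knockout.

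**Figure D1:**
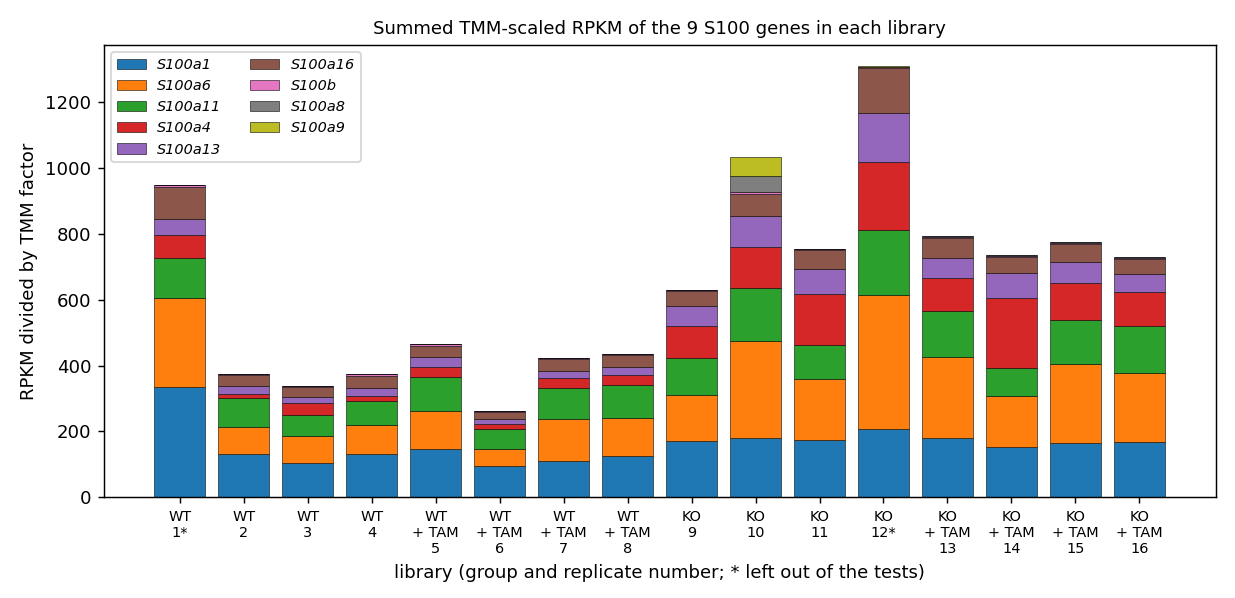
Summed RPKM of the 9 S100 genes, divided by the TMM factor of the library (vertical axis), in each of 16 libraries (horizontal axis), with 1 color per gene and asterisks on the libraries left out of the tests. The sums were 338 to 375 in the 3 tested WT libraries, 631 to 1033 in the 3 tested Mtm1 KO libraries and 948 in WT replicate 1, and S100a4 and S100a13 took a larger part of the bar in the knockout.

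To compare libraries, the RPKM of each was divided by its TMM factor, which was 0.857 to 0.956 in the tested wild type libraries and 1.03 to 1.19 in the tested knockout libraries, so that the deposited RPKM differ more between genotypes than the scaled values. The summed scaled level of the 9 genes was 375, 338 and 374 in WT, 631, 1033 and 755 in Mtm1 KO, 262 to 466 in WT + TAM and 730 to 794 in Mtm1 KO + TAM. No knockout library overlapped a wild type library among the 14. The library labelled WT replicate 1, at 948, lay inside the range of the tested Mtm1 KO libraries. The make-up also moved: S100a4 took 3.73% to 10.3% of the sum in WT and 12.04% to 20.4% in Mtm1 KO, and S100a13 took 5.29% to 6.89% against 9.15% to 10.4%. The share of S100a1 was lower, at 17.4% to 27.3% in Mtm1 KO against 30.8% to 35.5% in WT. S100a6 ranked first in 2 of the 3 tested Mtm1 KO libraries. These shares are a description, with no test.

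The first comparison asked how muscle without Mtm1 differs from WT muscle when neither was treated. S100a4, S100a13 and S100a6 rose in Mtm1 KO, by 6.05, 3.64 and 2.53 times, and no member fell. Of the 9 genes, 7 had enough counts for the test and 3 of them passed, all higher, against 3.60% of the 14740 genes tested that passed in either direction and 1.91% that passed as higher. S100a8 and S100a9 were too low for the test in this comparison. The median log2 fold change of the 7 genes was 0.77, and that of all genes tested was 0.02.

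S100a4, a protein of motile and fibroblast-like cells that binds nonmuscle myosin, changed most among the members that passed. Its CPM was 8.20, 20.5 and 8.62 in WT replicates 2 to 4 and 58.2, 73.1 and 90.4 in Mtm1 KO replicates 9 to 11. The groups did not overlap, and the lowest knockout library was 2.84 times the highest WT library. The log2 fold change was 2.60 ± 0.35 (SE, n = 3 and 3, edgeR adjusted p = 0.00296), with a 95% interval from 1.81 to 3.38. GENCODE vM21 places exons of Gm42674 over those of S100a4 on the same strand, and 47.4% of the 50-base stretches of S100a4 transcripts lie in both, so how reads were divided there depends on the annotation used for counting.

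S100a13, a partner of fibroblast growth factor 1 in its release from cells, was separated as clearly. Its CPM was 15.3, 12.8 and 18.4 in WT and 42.6, 67.6 and 56.3 in Mtm1 KO, again without overlap. The log2 fold change was 1.86 ± 0.20 (SE, n = 3 and 3, edgeR adjusted p = 0.00121). S100a1, whose start is 42 bases away on the other strand in the gap printed earlier, differed far less: it had 92.2, 72.2 and 92.2 CPM in WT and 119, 125 and 121 in Mtm1 KO. Its log2 fold change of 0.53 ± 0.13 (SE, n = 3 and 3, edgeR adjusted p = 0.0324) missed the threshold, although the groups did not overlap. The difference between both genes was not tested.

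S100a6, also called calcyclin and an annexin A2 partner, had 58.1, 58.7 and 61.9 CPM in WT and 100, 211 and 133 in Mtm1 KO. WT libraries lay within a few CPM of each other, while the knockout libraries spread over more than their own lowest value. The log2 fold change was 1.34 ± 0.24 (SE, n = 3 and 3, edgeR adjusted p = 0.00966), just inside the threshold.

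S100a16 and S100a11 were higher in every tested knockout library than in any tested WT library but missed the threshold. S100a16 had 55.5, 51.2 and 57.6 CPM in WT and 73.5, 111 and 91.3 in Mtm1 KO, with a log2 fold change of 0.77 ± 0.16 (SE, n = 3 and 3, edgeR adjusted p = 0.0178). S100a11 had 44.8, 33.2 and 37.8 against 56.3, 82.6 and 52.7, with 0.75 ± 0.19 (SE, n = 3 and 3, edgeR adjusted p = 0.0367). Of the 50-base stretches of S100a11, 41.1% recur in 3 processed pseudogenes; Gm12854 and Gm7665 had at most 15 and 33 counts per library, against at least 780 for S100a11. S100b had 4.32, 2.67 and 6.01 CPM in WT and 4.81, 8.12 and 4.42 in Mtm1 KO, which overlapped, and its log2 fold change of 0.44 had a 95% interval from -0.33 to 1.204 (edgeR adjusted p = 0.423).

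**Figure D2:**
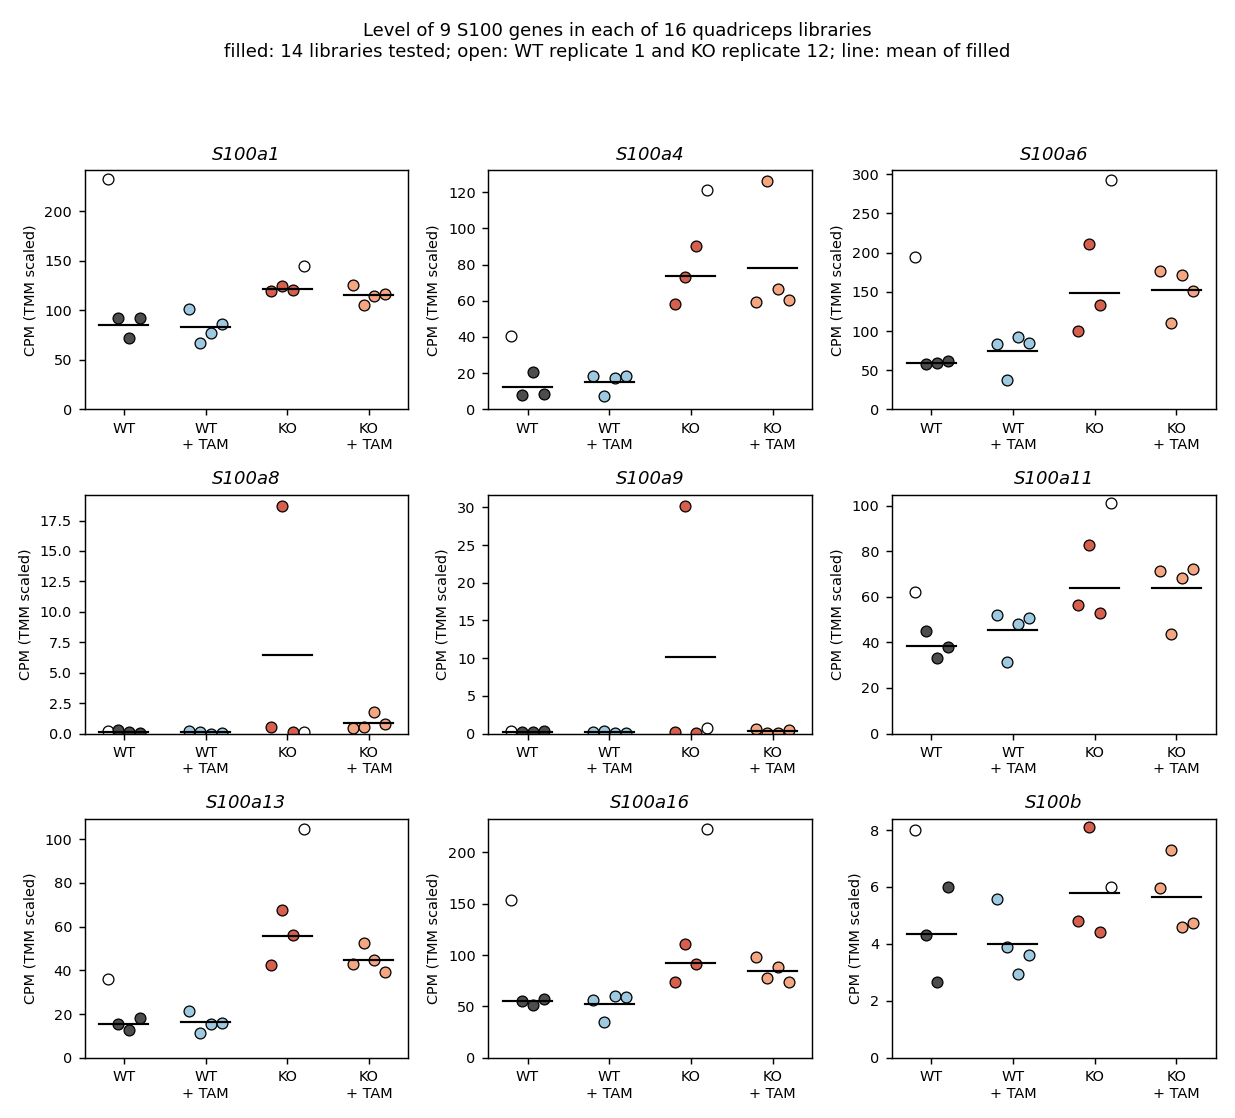
CPM scaled by TMM (vertical axis) of each of the 9 S100 genes in the 16 libraries by group (horizontal axis); filled points are the 14 libraries tested, open points WT replicate 1 and KO replicate 12, and lines the means of the filled points. S100a4 and S100a13 separate the genotypes in both treatments, S100a8 and S100a9 are high in 1 Mtm1 KO library, and WT replicate 1 is above the other WT libraries for 7 of the 9 genes.

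Of the 7 genes tested, 6 were higher in Mtm1 KO with no overlap between the groups, S100b being the exception, where 17.4% of all genes tested were higher without overlap. With 3 libraries on each side an exact permutation test, two-sided, cannot go below p = 0.1, the value it gave for all 6. The result turned on 1 library: with the library labelled WT replicate 1 added, none of the members passed, and S100a4 had a log2 fold change of 1.95 (edgeR adjusted p = 0.0766) and S100a13 of 1.44 (adjusted p = 0.0589). With Mtm1 KO replicate 12 added instead, S100a4 and S100a13 passed at 2.78 and 2.13 (edgeR adjusted p = 0.00468 for each) and S100a6 had 1.63 (adjusted p = 0.019). Over all 16 libraries none of the members passed, and S100a4 and S100a13 were the members whose groups did not overlap, each with an exact permutation p of 0.0286, the smallest that 4 against 4 can give. On the 14 libraries, 6 members passed by DESeq2, where 11.4% of all genes did, and 5 by the exact test of edgeR, where 9.85% did. Of the 3 calls, that of S100a6 was lost most often, in 5 of the 6 fits that left out 1 library, all but the one without Mtm1 KO replicate 9, and with upper quartile scaling. Leaving out WT replicate 4, Mtm1 KO replicate 10 or Mtm1 KO replicate 11 left S100a13 as the only member past the threshold.

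The second comparison put the same question to mice on tamoxifen, and it shares no library with the first. S100a4 and S100a13 rose in Mtm1 KO + TAM over WT + TAM, by 5.09 and 2.78 times. They were 2 of 8 members tested, against 6.72% of 14563 genes past the threshold in either direction and 3.42% as higher. The median log2 fold change of the 8 genes was 0.86, and that of all genes tested was -0.01. S100a8, untested in the untreated mice, is among the 8. It had at most 5 counts in WT + TAM, under the filter's minimum of 10, so only its knockout counts made it testable.

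S100a4 had 18.2, 7.64, 17.4 and 18.2 CPM in WT + TAM replicates 5 to 8 and 59.6, 126, 66.3 and 60.3 in Mtm1 KO + TAM replicates 13 to 16. WT + TAM replicate 6 was the lowest and Mtm1 KO + TAM replicate 14 the highest, and the lowest knockout library was 3.27 times the highest wild type library. The log2 fold change was 2.35 ± 0.31 (SE, n = 4 and 4, edgeR adjusted p = 0.000846). S100a13 had 21.6, 11.5, 15.6 and 16.03 CPM against 42.8, 52.7, 44.9 and 39.3, with a log2 fold change of 1.48 ± 0.18 (SE, n = 4 and 4, edgeR adjusted p = 0.000545). Both genes passed when any 1 of the 8 libraries was left out.

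S100a6 had 83.6, 36.8, 91.9 and 84.8 CPM in WT + TAM and 177, 111, 172 and 152 in Mtm1 KO + TAM. The groups did not overlap, but the log2 fold change of 1.04 ± 0.25 (SE, n = 4 and 4, edgeR adjusted p = 0.0175) missed the threshold; without WT + TAM replicate 6 it passed. S100a16, at 0.68 (adjusted p = 0.0211), and S100a1, at 0.48 (adjusted p = 0.0311), were likewise apart and past 0.05 but not 0.01 in edgeR. S100a11, at 0.49 with a 95% interval from 0.07 to 0.91, and S100b, at 0.49 with an interval from -0.02 to 1.01, overlapped between the groups.

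In all, 6 of the 8 members tested were higher without overlap, S100a1, S100a4, S100a6, S100a8, S100a13 and S100a16, where 10.9% of all genes tested were. An exact permutation test, two-sided, gave p = 0.0286 for each of the 6, the smallest possible with 4 against 4. For S100a8 neither result is support, since it passed the filter only through the knockout libraries, which fixed its direction in advance. At the looser adjusted p of 0.05, 6 members passed in each genotype comparison, against 12.8% of all genes for the untreated mice and 17.0% for those on tamoxifen. By DESeq2 6 members passed on tamoxifen, where 13.7% of all genes did, and by the exact test of edgeR 5 passed, where 12.5% did. On tamoxifen, S100a8 is among the members counted at 0.05, by DESeq2 and by the exact test. Members had positive log2 fold changes under every setting that gave a value, 153 values over 20 settings for the untreated mice and 153 over 19 settings for those on tamoxifen. These are refits of the same genes on overlapping libraries and not separate support. Where S100a8 and S100a9 gave a value in the untreated mice, Mtm1 KO replicate 10 held most of their counts, 571 and 922.

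**Figure D3:**
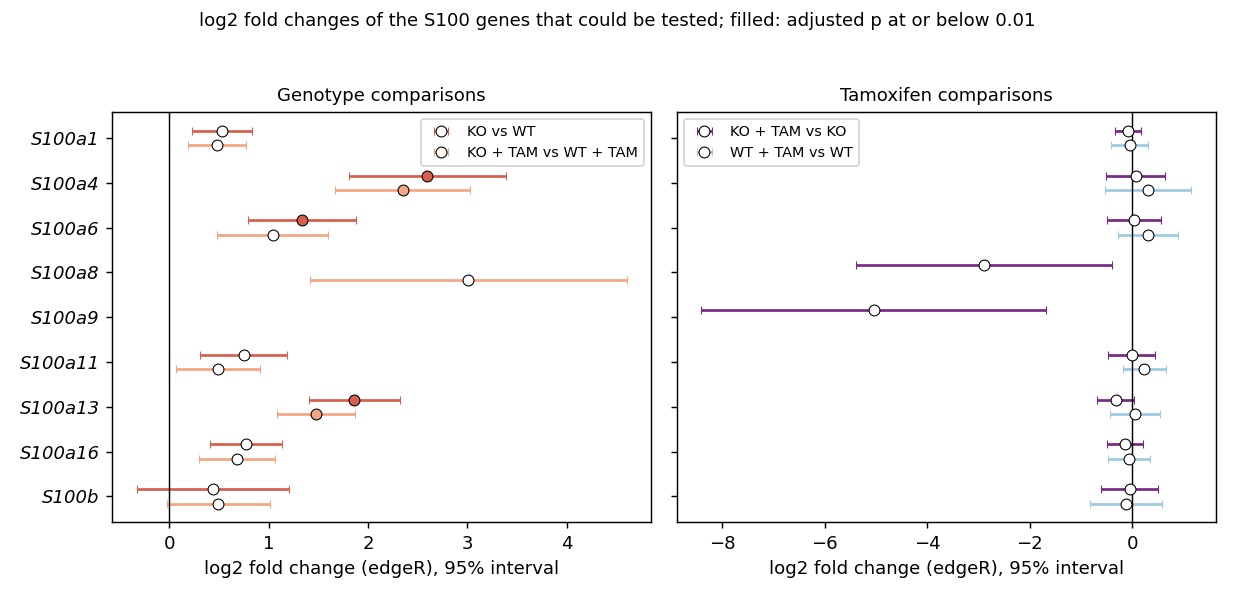
Fitted log2 fold changes (horizontal axis) with 95% intervals for the S100 genes (vertical axis) that could be tested, by genotype on the left and by tamoxifen on the right; filled points have an adjusted p at or below 0.01. S100a4 and S100a13 are filled in both genotype comparisons and S100a6 in the untreated one, and no point is filled for tamoxifen.

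The tamoxifen comparisons asked whether treatment moved these levels within a genotype. No member passed in Mtm1 KO + TAM against Mtm1 KO, where all 9 were tested and 0 of 15062 genes passed, a background of 0%, with 1137 genes at an unadjusted p under 0.05, S100a8 and S100a9 among them. By DESeq2 and by the exact test of edgeR, 72 genes passed each, none of them a member. S100a4 had a log2 difference of 0.07 with a 95% interval from -0.50 to 0.63, S100a6 of 0.03 from -0.50 to 0.56 and S100a13 of -0.32 from -0.68 to 0.04. Differences inside these intervals were not excluded with this number of mice. Apart from S100a8 and S100a9, the other members had values between -0.14 and -0.01.

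In WT + TAM against WT, 19 of 14544 genes passed, or 0.131%, and none of the 7 members tested, of which none had an unadjusted p under 0.05. Values ran from -0.12 for S100b to 0.32 for S100a6, whose interval was -0.27 to 0.90. The difference between both tamoxifen effects, tested as an interaction over the 14 libraries, passed for 0 of 15556 genes, a background of 0%, and for none of the 9 members; 664 genes and no member had an unadjusted p under 0.05. DESeq2 passed 12 genes for it, and limma passed 1 on log2(RPKM + 0.1) and 0 on log2(RPKM + 1), with no member among them. For S100a4 that difference was -0.23 (95% interval -1.30 to 0.85) and for S100a13 it was -0.36 (95% interval -0.96 to 0.23).

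S100a8 and S100a9, the calprotectin genes, behaved unlike the rest. Their raw counts are given, since the values are near the limit of detection. S100a8 had 7, 3 and 2 counts in WT, 5, 4, 0 and 1 in WT + TAM, 16, 571 and 5 in Mtm1 KO and 13, 18, 62 and 23 in Mtm1 KO + TAM. A count of 0 still allows up to 0.157 CPM in WT + TAM replicate 7 by the exact 95% Poisson interval, which covers counting error only. S100a9 had 4, 5 and 10 counts in WT, 6, 7, 1 and 2 in WT + TAM, 6, 922 and 2 in Mtm1 KO and 19, 2, 2 and 16 in Mtm1 KO + TAM. The high values of both genes were in the same mouse, Mtm1 KO replicate 10, at 18.7 and 30.2 CPM.

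Of the 13 neutrophil markers, a list that holds neither gene, 12 were highest in that library among the 14 tested. The exception was Il1r2, a decoy receptor of interleukin 1, at 0.655 CPM there against 1.18 and 2.01 in the other tested Mtm1 KO libraries. Their summed level was 98.1 CPM there, 5.69 and 5.92 in the other tested Mtm1 KO libraries and 2.34 to 9.31 in the 11 libraries of the other groups. Neutrophil granule genes were at 865 counts for Ngp, 462 for Camp and 417 for Ltf in Mtm1 KO replicate 10, against 0 for Ngp and Camp in replicates 9 and 11. Ly6g, a defining marker of neutrophils, had 15 counts there and 0 in every other tested library. Red blood cell markers summed to 255 CPM in that library, 86.7 and 72.3 in the other tested Mtm1 KO libraries and 66.7 to 184 in the other tested groups. The libraries left out of the tests had 453 (WT replicate 1) and 387 (Mtm1 KO replicate 12). Neutrophil content, blood held in the tissue and expression per cell cannot be told apart in these values, and their part in the result was not tested.

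**Figure D4:**
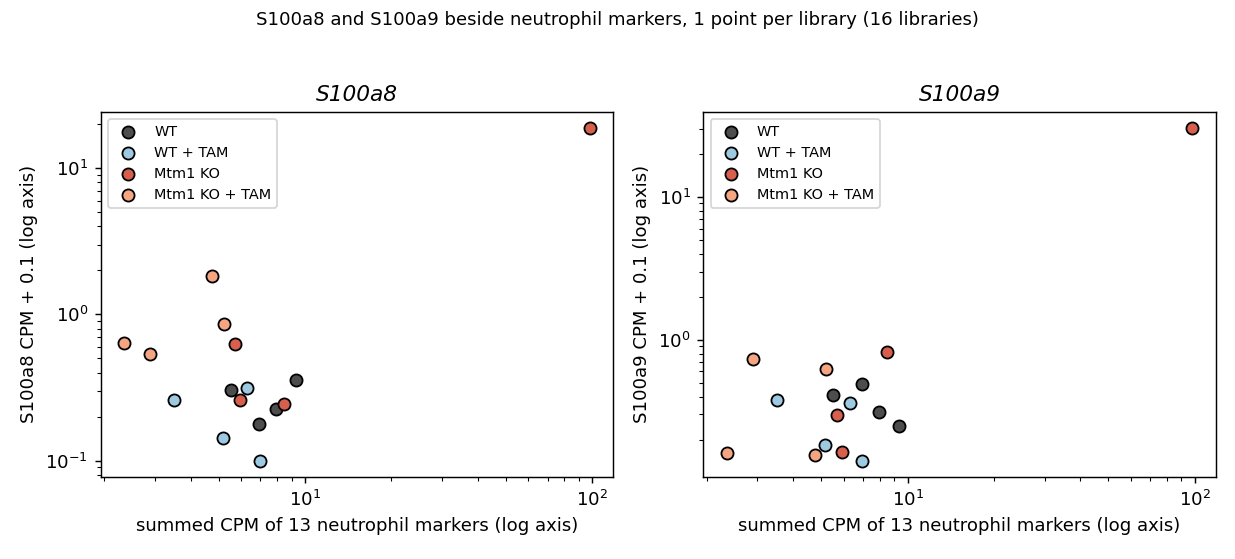
S100a8 (left) and S100a9 (right) CPM plus 0.1 on a log axis against the summed CPM of 13 neutrophil markers on a log axis, with 1 point for each of 16 libraries colored by group. Mtm1 KO replicate 10, at 98.1 CPM of markers, stands alone at the upper right, and the 4 Mtm1 KO + TAM points for S100a8 lie above all wild type points, at marker sums of 2.34 to 5.21 CPM.

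Because of that mouse, S100a8 and S100a9 had log2 differences of -2.89 and -5.04 for Mtm1 KO + TAM against Mtm1 KO (edgeR adjusted p = 0.556 and 0.393). Without Mtm1 KO replicate 10 the differences turned to 1.33 and 1.24. In the mice on tamoxifen, S100a8 was higher in all 4 knockout libraries than in any of the 4 wild type libraries, with a log2 fold change of 3.01 ± 0.73 (SE, n = 4 and 4, edgeR adjusted p = 0.0170), which missed the threshold. It could be tested there only through its knockout counts. The neutrophil markers beside S100a8 summed to 2.34 to 5.21 CPM in Mtm1 KO + TAM and 3.50 to 6.94 in WT + TAM, and Ly6g was at 0 in all 8 libraries. Of the 13 markers, 4 had enough counts for the test and none passed. Csf3r had a log2 fold change of 1.44 (edgeR adjusted p = 0.125), Lcn2 of -0.08, Il1r2 of -0.79 and Mmp9 of -1.22. The part of neutrophils in these S100a8 values was not tested. S100a9 overlapped between these groups, and in replicate 15 it had 2 counts where S100a8 had 62.

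Cell type markers were read beside the other members. Over all genes tested, 1.91% passed as higher and 1.69% as lower in the untreated mice, and 3.42% and 3.3% on tamoxifen. The marker lists were chosen with earlier results of these data known, so the counts below are a description. Of 7 markers of regenerating or denervated fibers, 6 rose in both genotype comparisons, among them Chrna1, Myog and Myh3, and their summed level was 82.7 to 97.0 CPM in WT, 302 to 426 in Mtm1 KO, 80.9 to 123 in WT + TAM and 276 to 411 in Mtm1 KO + TAM. The 11 macrophage markers measured summed to 212 to 239 CPM in WT and 265 to 388 in Mtm1 KO, with none past the threshold. On tamoxifen they summed to 104 to 250 CPM in WT + TAM and 264 to 458 in Mtm1 KO + TAM, without overlap, and 1 of the 11 rose, Cx3cr1, a chemokine receptor, with a log2 fold change of 2.30 (edgeR adjusted p = 0.00413). Summed fibroblast markers overlapped, at 6801 to 8193 CPM in WT and 5643 to 9156 in Mtm1 KO. Of the 12, 10 had positive log2 fold changes, with a median of 0.32, and 1, Postn, passed. On tamoxifen they summed to 3998 to 6628 in WT + TAM and 5825 to 7113 in Mtm1 KO + TAM. There 11 of the 12 were positive, 4 were past 0.05, against 17.0% of all genes, and 1 passed at 0.01. Schwann cell markers overlapped in the untreated mice, at 191 to 422 CPM in WT and 251 to 343 in Mtm1 KO, with 1 of 9 past the threshold. The 10 markers of mature fibers summed to 200252 to 267769 CPM in WT and 119375 to 139752 in Mtm1 KO, with none past the threshold, and in mice on tamoxifen 4 of the 10 fell in the knockout. None of the fat, endothelial, red blood cell or smooth muscle markers passed in either genotype comparison. The part of these cell types in the S100 values was not tested.

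The S100 genes outside the 9 were mostly silent. Of 8 looked for, 7 had a row, and 5 of these were too low for the test in the untreated mice, S100z with no count in any library. S100a2, inside the chromosome 3 cluster, was not among the 8 and had at most 6 counts in a library. S100a10, which forms a complex with annexin A2 at the cell membrane and is known for binding without calcium, had 47.5, 46.7 and 40.1 CPM in WT and 73.6, 102 and 94.2 in Mtm1 KO. It rose with a log2 fold change of 1.03 ± 0.15 (SE, n = 3 and 3, edgeR adjusted p = 0.00469), and on tamoxifen it had 0.69 (adjusted p = 0.0358). S100a3, next to S100a4, had 0.00 to 0.16 CPM in WT and 0.67 to 0.72 in Mtm1 KO, with an adjusted p of 0.0289 by edgeR. It had at most 4 counts in a tested WT library, under the filter's minimum of 10. Only its knockout counts made it testable, which fixed its direction in advance, so this p is not support.

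Among 4 receptors of released S100 proteins, Tlr4, a receptor of calprotectin, passed on tamoxifen with a log2 fold change of 1.35 (edgeR adjusted p = 0.00139) and had 1.39 in the untreated mice (adjusted p = 0.0115). Bsg, another receptor of S100a9, fell by 0.65 on the log2 scale on tamoxifen (edgeR adjusted p = 0.00826). Ager, which encodes RAGE, was too low for the test in both genotype comparisons. Of 16 genes for partners inside the cell, 15 were tested, and 1 rose and 1 fell in the untreated mice while 1 rose and 2 fell on tamoxifen. Over all genes tested, 1.91% passed as higher and 1.69% as lower in the untreated mice, and 3.42% and 3.3% on tamoxifen. Anxa2 rose in both, by 1.32 and 1.14 on the log2 scale (edgeR adjusted p = 0.00394 and 0.00658). Pygm, the muscle glycogen phosphorylase, fell in both, with log2 fold changes of -1.17 and -1.11 (edgeR adjusted p = 0.00438 and 0.000936), and Atp2a1, the calcium pump of fast fibers to which S100a1 binds, passed on tamoxifen at -0.90 (adjusted p = 0.00589) and had -0.72 in the untreated mice (adjusted p = 0.0442).

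The neighbours of the cluster on chromosome 3 were looked at for the same shift. Within 200 kb on either side of the block from S100a1 to S100a9, 7 genes that are not S100 genes had enough counts. All 7 lie on the S100a1 side. Pglyrp4 and Gm5849, beyond S100a9, were too low for the test, so that side was not examined. None of the 7 passed, against 3.60% of all genes tested in the untreated mice and 6.72% on tamoxifen. The log2 fold changes of the 7 ran from -0.13 to 0.23 in the untreated mice and from -0.34 to 0.41 on tamoxifen. Chtop, which starts at -4.94 kb from S100a13, beyond S100a1, had -0.13 ± 0.12 (SE, n = 3 and 3, edgeR adjusted p = 0.518).

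**Figure D5:**
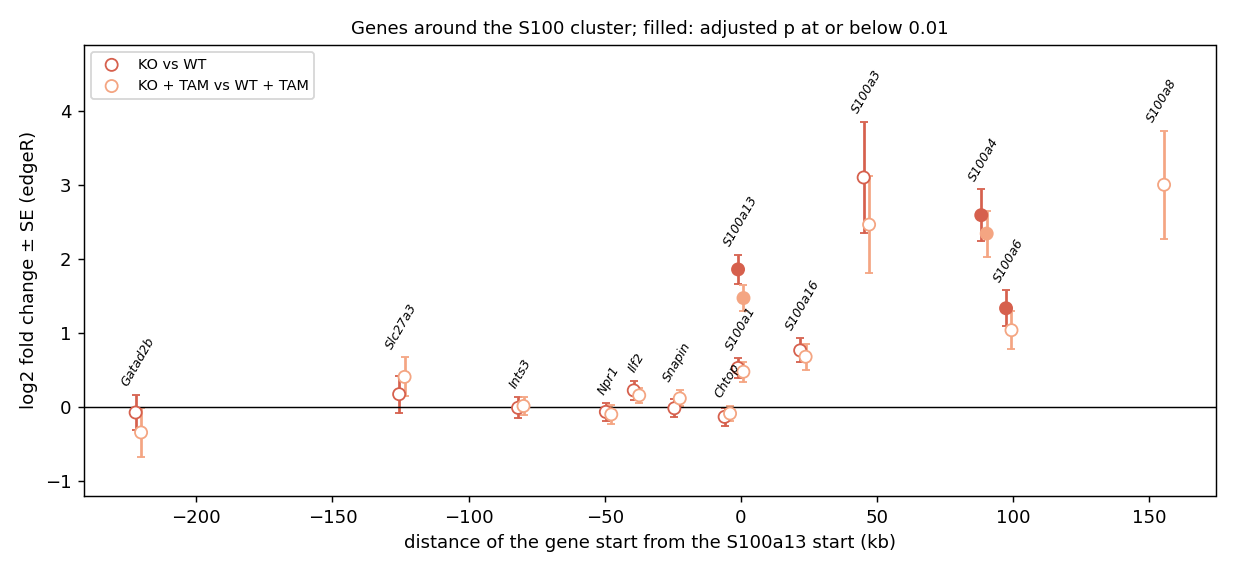
Log2 fold change with its SE (vertical axis) of the tested genes around the S100 cluster against the distance of each gene start from that of S100a13 in kb (horizontal axis), for both genotype comparisons; filled points have an adjusted p at or below 0.01. The 7 genes that are not S100 genes, all on the S100a1 side, lie between -0.34 and 0.41. S100a13, S100a4 and S100a6 are filled in the untreated comparison. S100a3, and S100a8 on tamoxifen, could be tested only through their knockout counts.

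Genes with the most similar profile were found as those with the smallest root mean square difference from a member, in log2 units, over the centred levels of the 14 libraries, among 11864 genes with a mean of at least 50 counts. S100a4 was nearest to Mfsd7a (0.36), Tmem158 (0.42) and Chrna1 (0.44), the last the alpha subunit of the muscle acetylcholine receptor. S100a6 was nearest to Capg (0.17), which caps actin filaments, Fxyd5 (0.20) and Anxa2 (0.20). S100a13 was nearest to Tmem176a (0.22), the small GTPase gene Rab13 (0.22) and 2610002J02Rik (0.22). Close single neighbours were Shisa5 for S100a11 (0.09), Arap1 for S100a16 (0.10), Atp6v1e1 for S100a1 (0.12) and Nr2f1 for S100b (0.18). S100a9 was nearest to the neutrophil granule gene Ngp, at 0.84, and S100a8 had no close neighbour, its nearest being Dmp1 at 1.22. S100a8, S100a9 and Ngp reached the mean of 50 counts only through Mtm1 KO replicate 10, with 571, 922 and 865 counts. The match of S100a9 to Ngp therefore rests on that mouse and is not separate support. All these points share the same libraries, and the distances are a description.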

How the data were processed

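RNA sequencing of quadriceps from 16 mice was analysed from a table of raw counts per gene and a table of RPKM, both deposited by the authors. Per the labels, RNA was extracted from frozen muscle and 1 µg went into Illumina TruSeq libraries; the authors used STAR on GRCm38 and HTSeq for the deposited counts, and the submitters' processing notes name bcl2fastq 2.17, STAR 2.5.0c and Cufflinks 2.2.1. Strand setting, counting mode, annotation and the gene length in the authors' RPKM were not given in these sources, so overlapping genes cannot be separated. GENCODE vM21 gave positions for the 9 genes and 40254 of the 41388 IDs.

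The main test was edgeR 4.0.16 (R 4.3.3) on raw counts, with TMM scaling, filterByExpr (minimum count 10, total 15), a quasi-likelihood fit of the libraries of each comparison and Benjamini-Hochberg adjustment over all genes tested, threshold 0.01 as in the study; SE is the log2 fold change over the square root of F. The interaction used 1 fit of 4 groups. Summed RPKM were divided by TMM factors before libraries were compared. Alternatives were DESeq2 1.42.0, the exact test of edgeR, limma 3.58.1 on log2(RPKM + 0.1) and log2(RPKM + 1), other scalings, filters and threshold, 1 fit of all groups, other library sets and leaving out each library. Adding WT replicate 1 or Mtm1 KO replicate 12 singly was chosen after the values were seen. The scripts were tested on simulated data. Members and gene lists were chosen with earlier results of these data known. Text names all members, listed S100 genes, receptors and partners past the threshold, and the nearest profiles. Intervals on single libraries cover counting error only. No library pair among 120 held identical values.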

Additional observations from a re-analysis of the deposited data

Results flagged for a closer look

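In groups of 4 libraries, 10 of 36 member and group pairs had 1 library farther from the others than Dixon's 95% limit allows, a limit that chance alone passes in about 5% of such groups. The pairs are not independent, since a few libraries account for all of them.

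The library labelled WT replicate 1 stood above the other WT libraries for S100a1 at 233 CPM, S100a6 at 194 and S100a16 at 154. It is the library whose raw Mtm1 count was in the knockout range, while its scaled Mtm1 CPM of 3.81 lay between the knockout and the other wild type libraries. WT + TAM replicate 6 stood below its group for S100a4 at 7.64 CPM, S100a6 at 36.8 and S100a16 at 34.4. Mtm1 KO + TAM replicate 14 had the highest S100a4 of its group, 126 CPM, and the lowest S100a11, 43.8 CPM. Mtm1 KO replicate 10 stood alone for S100a8 at 18.7 CPM and S100a9 at 30.2 CPM, beside 98.1 CPM of summed neutrophil markers. The cause was not tested for any of these libraries.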

How the results depend on the processing

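No paired analysis was possible because no replicate number occurs in more than 1 group and the sources used here do not say which of the littermates shared a litter, so litter could not be a term in any fit. In the untreated genotype comparison 3 members passed, with 6 by DESeq2, 5 by the exact test of edgeR and 6 at a threshold of 0.05. The count was 5 with library size only, where 7.89% of all genes passed, and 6 without a filter, where 4.83% did. Those 6 include S100a8, whose counts in the tested Mtm1 KO libraries were 16, 571 and 5. It was 0 with all 16 libraries and 0 with WT replicate 1 added, and leaving out 1 library gave 1 to 4 members. On tamoxifen 2 members passed, with 6 by DESeq2, 5 by the exact test, 6 at 0.05 and 6 by limma with either pseudocount (where 11.6% and 11.1% of all genes passed). The count was 7 with library size only, where 12.9% of all genes passed, and 5 without a filter, where 5.43% did. Each of these larger counts on tamoxifen includes S100a8, whose counts were above the filter's minimum only in the knockout libraries. Library size only put the median over all genes tested at 0.33 and 0.27 on the log2 scale and moved the share of higher calls from 53.1% to 88.0% and from 50.9% to 88.4%, so its extra calls include that shift. The deposited RPKM carry it too: limma put the median at 0.32 and 0.25 with a pseudocount of 0.1 and at 0.20 and 0.16 with 1, and 87.1% to 88.8% of its calls were higher; no member changed direction in these 2 comparisons. Alternatives not named kept the count of members within 1.5 times.

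No member passed in a tamoxifen comparison under any setting, and all reversals were there. For Mtm1 KO + TAM against Mtm1 KO, S100a11 turned to 0.0021 by DESeq2 and by relative log expression scaling and 0.0029 in 1 fit of all groups, S100a4 to -0.030 by limma with a pseudocount of 0.1 and -0.0298 with 1, S100a6 to -0.016 with library size only, and S100a4 and S100a6 to -0.15 and -0.28 with KO replicate 12 added, alone or among all 16. Leaving out 1 library gave S100a4 -0.26 to 0.24, S100a6 -0.18 to 0.38, S100a8 -3.49 to 1.33, S100a9 -5.62 to 1.24, S100a11 -0.12 to 0.22, S100a16 -0.27 to 0.022 and S100b -0.20 to 0.28. For WT + TAM against WT, S100a4, S100a6 and S100a13 turned to -0.33, -0.32 and -0.35 with WT replicate 1 added, alone or among all 16, and leaving out 1 library gave S100a1 -0.17 to 0.048, S100a13 -0.12 to 0.20, S100a16 -0.13 to 0.10 and S100b -0.37 to 0.19. The interaction turned with all 16 libraries to 0.42 for S100a1, 0.20 for S100a4, 0.057 for S100a6 and 0.033 for S100a16, and with WT replicate 1 added to 0.49 for S100a1, 0.41 for S100a4, 0.37 for S100a6, 0.046 for S100a13 and 0.47 for S100a16; leaving out 1 library gave S100a1 -0.12 to 0.086, S100a4 -0.79 to 0.0022, S100a6 -0.50 to 0.072, S100a8 -2.92 to 1.90, S100a9 -5.04 to 1.81, S100a16 -0.22 to 0.10 and S100b -0.23 to 0.40. The cause was not tested. With 3 or 4 mice a group, pairwise SEs of 0.11 to 0.37 for the members other than S100a8 and S100a9 set the size of difference that these data could show.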
